A study of Homo sapiens with 6 samples.

Results

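PC-9ER was compared with PC-9GR, both labelled as lung adenocarcinoma cell lines and, by the design text and their names, resistant derivatives of PC-9. The comparison uses 2 of the 6 RNA libraries of the study, and it covers the 16000 genes listed for both lines. PC-9 itself, the third library of this origin, is shown beside them to tell which line stood apart. The other 3 libraries came from HCC827, HCC827GR (labelled HCC82GR, taken here as HCC827GR) and HCC827ER. PC-9 and HCC827 are human lung adenocarcinoma lines with activating EGFR mutations, and the design text asks which signalling pathways lie behind resistance acquired against inhibitors of the EGFR kinase. GR and ER are given in the labels without explanation. Cells were kept in RPMI-1640 medium with serum and antibiotics, and total RNA was sequenced after ribosomal RNA depletion with a stranded kit. How the lines labelled GR and ER were selected, whether they are clones, and whether an inhibitor was present at harvest were points not given in the sources used here.

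EGFR is a receptor tyrosine kinase that signals through RAS to ERK, and ERK in turn drives feedback genes such as SPRY4 and DUSP6, whose transcripts are used as readouts of pathway output. Epithelial cells keep their junctions, polarity and splicing pattern through transcription factors such as GRHL2 and OVOL2 and through the splicing factors ESRP1 and ESRP2, whereas ZEB1 represses many of the same genes. Detoxifying enzymes such as aldo-keto reductases and aldehyde dehydrogenases are under control of the stress regulator NRF2 or mark particular cell lineages.

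Each line has 1 library, so no difference below has a replicate check, and no p-value, standard error or test is given. Levels are in CPM, counts per 1000000 counts after scaling, and 3 values in a row are always PC-9, PC-9GR and PC-9ER in that order. Total counts were 16897451, 17859787 and 17244881. A count of 0 allows up to 3 counts, which is 0.172 CPM in PC-9, 0.169 CPM in PC-9GR and 0.168 CPM in PC-9ER. Reads carry no molecular identifiers, so intervals and floors cover counting error only. PC-9 and PC-9GR are in one deposited table and PC-9ER in another, so the table and the line cannot be told apart.

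The library labelled PC-9GR stands apart, and every direction below rests on it. Across genes, Spearman's rho was 0.970 between PC-9 and PC-9ER, 0.825 between PC-9 and PC-9GR and 0.842 between PC-9GR and PC-9ER. With HCC827 it was 0.866 for PC-9, 0.861 for PC-9GR and 0.876 for PC-9ER. With HCC827GR it was 0.831, 0.868 and 0.847 in the same order. Genes are not independent replicates. In a check for mixed-up samples, 1 of the 2 libraries of PC-9 origin in the first table did not match the other. Whether the library labelled PC-9GR comes from a derivative of PC-9 was not settled here, and this bears on every ratio below. PC-9GR always means the library so labelled. Of 9 markers of epithelial and lung adenocarcinoma cells, 7, 6 and 7 reached 1 CPM in PC-9, PC-9GR and PC-9ER, with summed levels of 9526, 8363 and 6161 CPM. The lung markers among them were low: NKX2-1 was at 0.746, 0 and 1.12 CPM, NAPSA at 0.115, 0.506 and 0.112 CPM and SFTPB at 2.87, 0.0563 and 0.224 CPM. The defining leukocyte markers CD3E, CD14 and LYZ summed to at most 5.12 CPM, nearly all of it CD14, at 0.0574, 5.06 and 0.168 CPM. PTPRC, also set as a leukocyte marker, is not listed for both lines. The wider leukocyte list has 5 members past the limit of 1 CPM, with a median log2 ratio of 1.43 between PC-9ER and PC-9GR. LCP1 is among them, at 921, 0.0563 and 898 CPM. Fibroblast markers summed to 22.3, 31.3 and 39.8 CPM, nearly all of it COL1A1. Endothelial markers summed to 213, 0.113 and 53.8 CPM, from CDH5, VE-cadherin, at 147, 0.113 and 31.7 CPM and PECAM1, CD31, at 66.6, 0 and 22 CPM, while VWF was near 0 in all 3. Those 2 endothelial transcripts were thus clear in PC-9 and PC-9ER and near absent from PC-9GR. The part of these marker differences in the results was not tested.

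A gene was counted as apart when the lines differed by 2-fold or more in either direction (a log2 ratio of 1, computed on CPM after adding a prior of 2 counts) and one of them reached 1 CPM. The limit of 1 CPM was reached in PC-9ER or PC-9GR by 13023 genes. Of these, 2392 (18.4%) were at least 2-fold higher in PC-9ER and 2669 (20.5%) in PC-9GR, 38.9% in all. At 4-fold the counts were 1172 (9%) and 1287 (9.88%). By the same rule 41.7% of genes differed between PC-9GR and PC-9 (21.8% higher and 19.9% lower in PC-9GR) and 13.1% between PC-9ER and PC-9 (5.42% higher and 7.64% lower in PC-9ER). These comparisons share PC-9, so they are given side by side only.

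**Figure D1:**
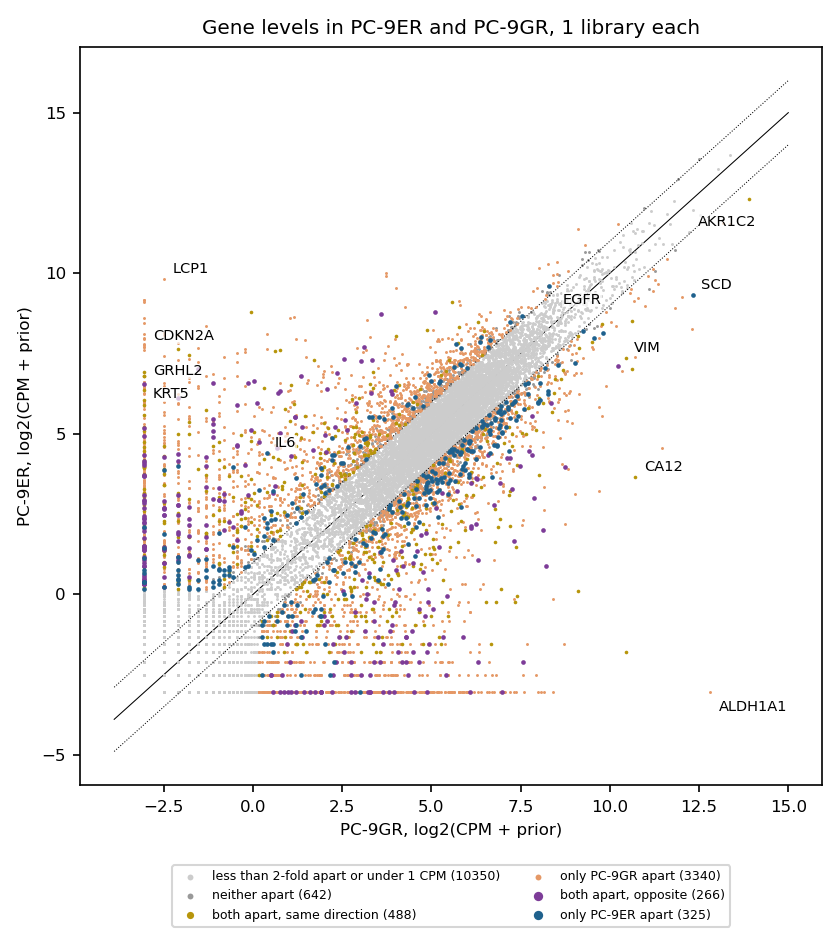
Level of each gene in PC-9GR (x axis) and PC-9ER (y axis), log2 of CPM plus the prior, 1 library each. The solid line marks equal levels and the dotted lines 2-fold. Colours show which line was at least 2-fold from PC-9: most coloured points, 3340 genes, are those where only PC-9GR was, and genes such as LCP1 and ALDH1A1 lie along the axes.

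For 3340 of the 5061 genes (66%) only PC-9GR was at least 2-fold from PC-9. For 325 (6.42%) only PC-9ER was, for 266 (5.26%) the lines lay on opposite sides of PC-9, for 488 (9.64%) both were 2-fold from PC-9 in one direction by unequal amounts, and for 642 (12.7%) neither was 2-fold from PC-9. Most genes that separated the lines thus separated PC-9GR from PC-9 as well, while PC-9ER was within 2-fold of PC-9. The limit of 1 CPM was set between PC-9ER and PC-9GR alone, so a gene can be 2-fold from PC-9 on a few counts. With the same limit also set in each comparison with PC-9, an alternative chosen after seeing the data, the classes held 3424, 365, 174, 414 and 684 genes, and the class on opposite sides fell by more than 1.5 times.

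**Figure D2:**
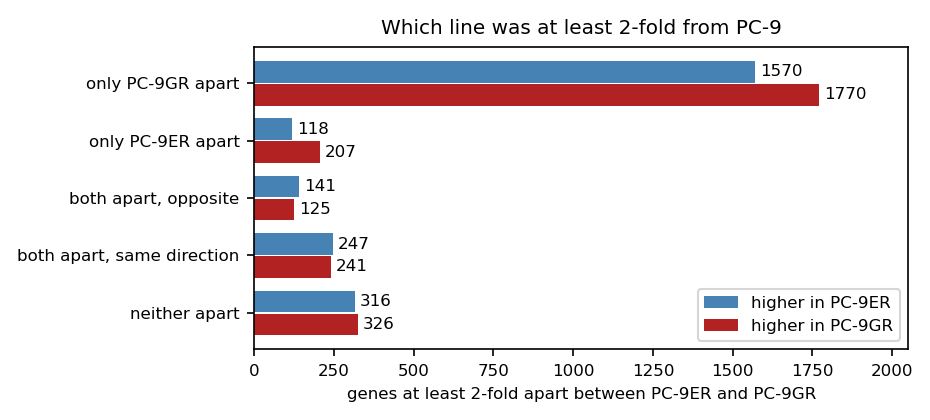
Number of genes at least 2-fold apart between PC-9ER and PC-9GR, split by which line was at least 2-fold from PC-9 and by direction. Bars for genes where only PC-9GR stood apart reach 1570 and 1770, and those where only PC-9ER stood apart reach 118 and 207.

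For some genes the gap was between a clear level and near absence, defined as 10 CPM or more in one line and 3 counts or fewer in the other. In this sense 182 genes (1.14% of 16000) were near absent in PC-9GR and clear in PC-9ER, and 159 of them were at 10 CPM or more in PC-9 as well. The reverse held for 209 genes (1.31%), and 182 of them had 3 counts or fewer in PC-9 too, with just 1 at 10 CPM or more there. Of the 182 genes near absent in PC-9GR, 68 were at 10 CPM or more in HCC827 and 52 had 3 counts or fewer there. Of the 209, 56 and 62 did. The share of all genes at these levels in HCC827 is not given, so no reading is drawn from these counts. Genes that nearly every cell uses are among those listed at 0: UBE2M, a NEDD8-conjugating enzyme, was at 0, 109 and 0 CPM and PRDX2, a peroxiredoxin, at 235, 0 and 216 CPM (both chosen after their values were seen). A value of 0 here therefore means only that a gene is listed at 0, and near absence, the folds at the floor and their bounds hold for the values as listed. Fewer cells with a transcript and less transcript per cell cannot be told apart in these libraries.

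The 10 largest gaps with PC-9ER higher included LCP1, MAL, KLK5, KLK6, MAGEA3, MAGEA4, MAGEA6, WFDC2 and PTGIS. LCP1 (NCBI gene 3936, chromosome 13, 46125920 to 46211871), the actin bundler L-plastin of leukocytes and many carcinomas, was at 921, 0.0563 and 898 CPM, from 16048, 1 and 16037 counts. The ratio of PC-9ER to PC-9GR rests on that 1 count and has a counting interval of 2865 to 630529. MAL (NCBI gene 4118, chromosome 2, 95025677 to 95053996), a raft protein of apical transport, was at 726, 0 and 571 CPM, at least 3382-fold higher in PC-9ER at the floor of 3 counts. The serine proteases KLK5 at 374, 0 and 554 CPM and KLK6 at 467, 0 and 391 CPM were listed at 0 in PC-9GR alone. WFDC2, the secreted protein HE4, was at 246, 0 and 247 CPM and PTGIS, prostacyclin synthase, at 151, 0 and 222 CPM. All 10 were within 2-fold of PC-9 in PC-9ER.

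In the other direction the 10 largest included ALDH1A1, CPLX2, SIK1B, CXCL5, IGFBP7, C12orf75, BICC1, KLF13 and PRAME. ALDH1A1 (NCBI gene 216, chromosome 9, 72900662 to 73080442), which oxidises retinaldehyde and marks stem-like cells in several tumours, was at 0.0574, 7229 and 0 CPM, from 1, 128488 and 0 counts, and so, as listed, at least 43029-fold higher in PC-9GR. CPLX2 (NCBI gene 10814, chromosome 5, 175796310 to 175884020), a regulator of synaptic vesicle fusion, was at 0, 1404 and 0.168 CPM, with 0, 24959 and 3 counts. CXCL5, a chemokine that attracts neutrophils, was at 0, 284 and 0 CPM and IGFBP7, a secreted binding protein of insulin-like growth factors, at 0.115, 269 and 0 CPM. KLF13, a zinc finger transcription factor, was at 0.0574, 166 and 0 CPM. BICC1, an RNA-binding protein of the kidney and biliary tract, was at 0, 243 and 0.0560 CPM. All 10 were near absent in both PC-9 and PC-9ER. SIK1B, at 0, 339 and 0 CPM, has a near-identical copy with which it can share reads, so its value is uncertain. C12orf75, at 0, 192 and 0 CPM, was at 282, 232 and 255 CPM in HCC827, HCC827GR and HCC827ER.

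The gene lists are summarised by the number of members past the limit of 1 CPM, the number at least 2-fold higher in each line and the median log2 ratio of PC-9ER to PC-9GR. Over all 13023 genes that median was -0.02, and the shares to set beside each count are 18.4% for PC-9ER and 20.5% for PC-9GR. For counts of members within 2-fold, the share of all genes is 61.1%. In each list the members with the largest gaps and up to 4 with a defining role are named by rule, and a few further members were chosen after their values were seen to show where a list divides. Medians of lists with many genes at 0 depend on the prior count, so a second median with counts under 3 raised to 3 is given where the first moves by more than 0.1.

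**Figure D3:**
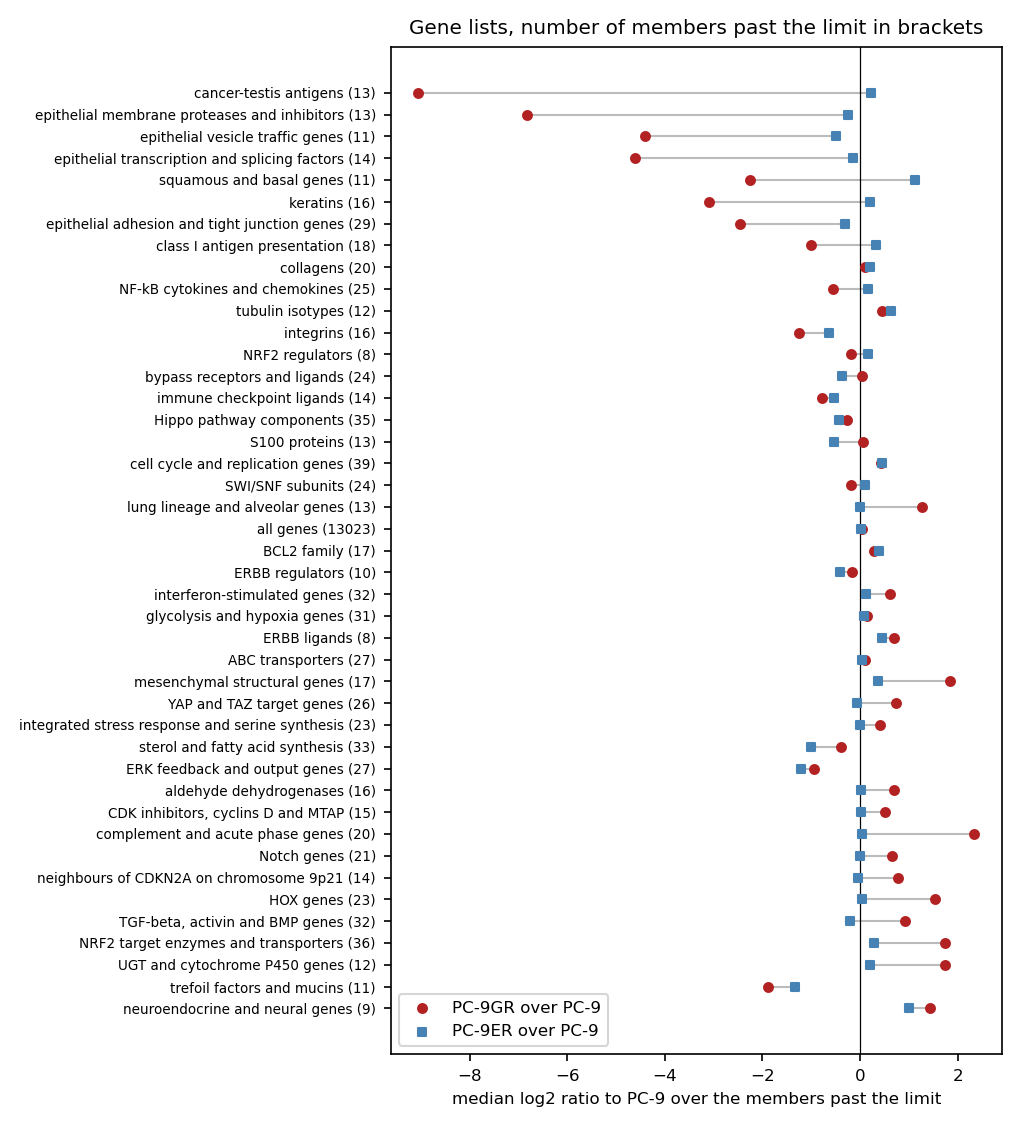
Median log2 ratio to PC-9 in PC-9GR (circles) and PC-9ER (squares) for lists with at least 8 members past the limit, ordered by the gap between the lines. The number of members is in brackets. The cancer-testis and epithelial lists have circles far to the left at medians of -9.06 to -2.47 and squares near 0, and all genes together sit at 0.04 and 0.01.

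In 4 lists of epithelial genes most members were higher in PC-9ER. Of 14 epithelial transcription and splicing factors, 11 were higher in PC-9ER and 1, ELF3, in PC-9GR, with a median of 4.39. GRHL2 (NCBI gene 79977, chromosome 8, 101492432 to 101669726), which keeps epithelial junction genes on, was at 91.5, 0 and 98.5 CPM, at least 583-fold higher in PC-9ER. ESRP1 (NCBI gene 54845, chromosome 8, 94641074 to 94707466), which sets the epithelial splicing pattern, was at 257, 0.225 and 202 CPM and its paralog ESRP2 at 56.4, 0.281 and 44.9 CPM. OVOL2, a repressor of mesenchymal genes, followed the same pattern at 4.13, 0.0563 and 6.78 CPM, whereas the epithelial factors KLF5 at 111, 84.1 and 71.2 CPM and ELF3 at 154, 351 and 158 CPM were not lower in PC-9GR than in PC-9ER. In PC-9ER the list was at PC-9's level (median log2 ratio -0.15), and in PC-9GR it was at -4.61.

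Of 29 adhesion and tight junction genes, 18 were higher in PC-9ER, 1 in PC-9GR and 10 were within 2-fold, with a median of 2.43. CDH3, P-cadherin, was at 209.5, 0.113 and 268 CPM. CLDN7, a claudin of tight junctions (NCBI gene 1366, chromosome 17, 7259903 to 7263983), was at 269, 0.731 and 201 CPM, 236-fold higher in PC-9ER with a counting interval of 161 to 517. EPCAM, the epithelial adhesion molecule (NCBI gene 4072, chromosome 2, 47345158 to 47387601), was at 372, 1.91 and 392 CPM. CDH1, E-cadherin (NCBI gene 999, chromosome 16, 68737225 to 68835548), was lower but present in PC-9GR at 312, 56.3 and 243 CPM. TJP1, the tight junction scaffold ZO-1, was the 1 member higher in PC-9GR at 112, 211 and 78 CPM, and the desmosome genes DSP and JUP, at 105, 129.6 and 112 and at 517, 452 and 406 CPM, did not separate the lines by 2-fold. The lower junction transcripts of PC-9GR thus covered 18 of the 29 members, and PC-9ER lay near PC-9 (median -0.30).

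The promoters of CLDN7 and LAD1 are shown because, among members of the adhesion list with a promoter window at hand, they have the largest gaps and hold the E-box CACCTG, the sequence ZEB1 and SNAI factors are known to bind. LAD1, a filament anchor of the basement membrane zone, was at 100.5, 2.81 and 101 CPM. The windows run from 250 bases before to 50 after the gene start in RefSeq (GRCh38.p14), 5′ to 3′ on the gene's strand, with CACCTG and its reverse complement CAGGTG in capitals. CLDN7 lies on the minus strand at chr17:7262429-7262728 and LAD1 on the minus strand at chr1:201399275-201399574.
CLDN7: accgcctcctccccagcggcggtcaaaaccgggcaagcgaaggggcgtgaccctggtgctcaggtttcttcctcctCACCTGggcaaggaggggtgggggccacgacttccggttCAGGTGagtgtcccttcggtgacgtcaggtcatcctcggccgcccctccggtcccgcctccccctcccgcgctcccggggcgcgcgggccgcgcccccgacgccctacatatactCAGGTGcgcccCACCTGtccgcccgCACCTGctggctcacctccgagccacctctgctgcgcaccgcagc
LAD1: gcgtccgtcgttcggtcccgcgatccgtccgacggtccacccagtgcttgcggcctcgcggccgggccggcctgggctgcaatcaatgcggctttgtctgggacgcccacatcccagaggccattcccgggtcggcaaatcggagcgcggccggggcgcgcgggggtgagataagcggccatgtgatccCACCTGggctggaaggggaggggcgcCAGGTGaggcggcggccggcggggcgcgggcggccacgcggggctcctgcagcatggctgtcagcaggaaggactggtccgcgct
CLDN7 holds 5 matches and LAD1 holds 2. GJB2, the next member by the same rule, holds 1 and is not shown. The motif, searched on both strands, is in 7231 of 35116 promoter windows (20.6%). A window was at hand for 43 of the 71 members of the 4 epithelial lists that are listed in both tables, too few to give a share for the lists. A match is a description of the sequence and not a binding site measured here.

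Membrane proteases and their inhibitors were higher in PC-9ER in 12 of 13 members, and in PC-9GR in 0, with a median of 6.87 (6.68 with counts raised to 3). ST14, matriptase (NCBI gene 6768, chromosome 11, 130159562 to 130210376), was at 473, 0.0563 and 267 CPM, and its inhibitor SPINT1 at 292, 0.619 and 150.1 CPM. TMPRSS13 was at 92.2, 0 and 54.4 CPM and PRSS8, prostasin, at 26.5, 0.113 and 17.4 CPM. The second matriptase inhibitor, SPINT2, was the exception, at 462, 293 and 573 CPM. Kallikreins are neighbours of similar sequence, so reads may be shared among them.

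Of 11 genes of epithelial vesicle traffic 10 were higher in PC-9ER, with a median of 4.43. RAB25, a small GTPase of apical recycling, was at 82.1, 0.0563 and 63.6 CPM. MAL2, which takes part in transcytosis, was at 500.1, 0.0563 and 284 CPM and RAB17, of recycling endosomes, at 36.4, 0.338 and 20.9 CPM. All 3 were near PC-9's level in PC-9ER and close to the floor in PC-9GR. STX3, an apical fusion protein, was within 2-fold at 63.2, 23.8 and 44.2 CPM.

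Keratins split. Of the keratins of simple epithelia, KRT7, KRT8 and KRT18 were strong in all 3 libraries. KRT7 was at 2734, 2185 and 1708 CPM. The partners KRT8, at 2492, 3647 and 1708 CPM, and KRT18, at 1731, 2459 and 1079 CPM, were more than 2-fold higher in PC-9GR. KRT19 (NCBI gene 3880, chromosome 17, 41523617 to 41528308), another simple keratin, was at 1881, 13.1 and 1029 CPM, 77.8-fold higher in PC-9ER (counting interval 69 to 89.7). The basal and stress keratins KRT5, KRT6A and KRT17 were higher in PC-9ER than in both other libraries. KRT5 (NCBI gene 3852, chromosome 12, 52514575 to 52520687) was at 5.74, 0 and 94.3 CPM, KRT6A at 0.919, 0 and 17.6 CPM and KRT17 at 1.38, 0.0563 and 19.4 CPM. In all, 9 of 16 keratins were higher in PC-9ER and 5 in PC-9GR, with a median of 3.16 (2.93 with counts raised to 3). Keratin 6 genes and their pseudogenes are near copies, and reads may be shared.

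The wider list of squamous and basal genes had 9 of 11 members higher in PC-9ER and 2 in PC-9GR, with a median of 3.42 (2.87 with counts raised to 3). It was the list with the highest median of PC-9ER over PC-9 in the plot of medians, at 1.12, against -2.26 in PC-9GR (-1.44 with counts raised to 3). TRIM29, a marker of squamous tumours, was at 93.4, 0.394 and 63.3 CPM and KRT15 at 28.8, 0.844 and 7.73 CPM. TP63, the master factor of basal cells, was low at 0.919, 1.35 and 3.14 CPM, and KRT14 was at or near 0 in all 3.

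**Figure D4:**
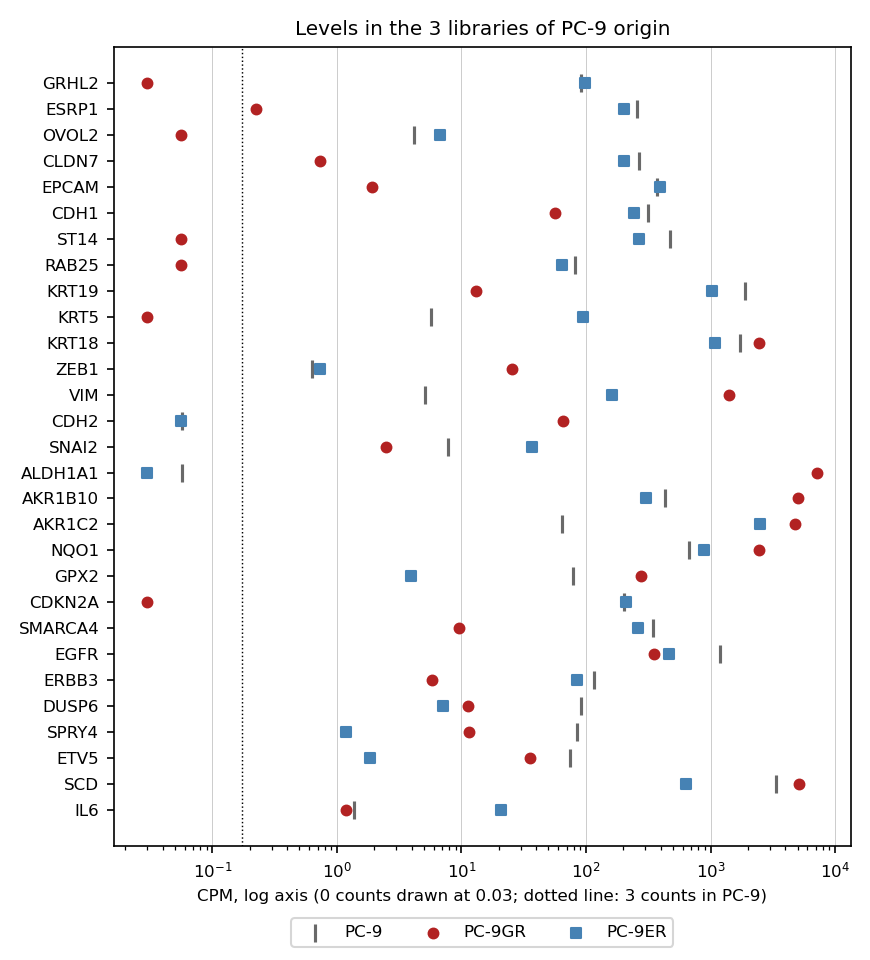
Level in CPM, on a log axis, of 29 named genes in PC-9 (bars), PC-9GR (circles) and PC-9ER (squares), 1 library each; 0 counts are drawn at 0.03 and the dotted line marks 3 counts in PC-9. For most epithelial genes the PC-9ER square lies near the PC-9 bar and the PC-9GR circle far to the left, while for DUSP6, SPRY4, ETV5 and EGFR both lie left of PC-9.

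Mesenchymal genes listed for both lines did not mirror the epithelial ones as a block. Of 6 mesenchymal transcription factors past the limit, 3 were higher in PC-9GR and 1 in PC-9ER, with a median of -1.34. Another 4 of the 10 factors are listed for PC-9 and PC-9GR but not for PC-9ER, and enter no count. Their counts in PC-9 and PC-9GR were 6 and 38 (TWIST1), 0 and 2 (PRRX1), 4 and 16 (FOXC2) and 0 and 17 (GSC). The 4 epithelial lists had 0 such members. ZEB1 (NCBI gene 6935, chromosome 10, 31318495 to 31529814), the repressor of epithelial genes, was at 0.632, 25.3 and 0.728 CPM, 29.9-fold higher in PC-9GR (counting interval 20.1 to 65.8). ZEB2 was at 0.976, 6.92 and 1.79 CPM and TWIST2 at 0, 15.8 and 0 CPM. SNAI2 (NCBI gene 6591, chromosome 8, 48917604 to 48921740), the repressor SLUG, went the other way at 7.87, 2.48 and 37 CPM and was the member higher in PC-9ER. The lines thus differed in which repressor transcript was higher.

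Among 17 mesenchymal structural genes, 8 were higher in PC-9GR and 3 in PC-9ER, with a median of -0.36. Another 3 members are not listed for PC-9ER and enter no count. In PC-9 and PC-9GR, THY1 had 1 and 171 counts, CDH11 had 0 and 14 and PDGFRA had 0 and 19. VIM (NCBI gene 7431, chromosome 10, 17228259 to 17237593), vimentin, was at 5.11, 1396 and 163 CPM, above PC-9 in both lines and most in PC-9GR. CDH2, N-cadherin, was at 0.0574, 65 and 0.0560 CPM and CDH4, R-cadherin, at 0.115, 30.0 and 0.224 CPM. S100A4, a calcium-binding protein of motile cells, was at 6.78, 297 and 1.74 CPM. MMP14, a membrane metalloproteinase, was at 48.2, 0.900 and 101 CPM and FN1, fibronectin, at 537, 249.7 and 752 CPM, both higher in PC-9ER. LOX, which crosslinks collagen, was the third at 51, 1.74 and 36.7 CPM. The cadherins and S100A4 thus separated PC-9GR from both other libraries, and the matrix genes MMP14 and LOX were low in it.

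Collagens had 10 of 20 members higher in PC-9ER and 7 in PC-9GR. The basement membrane pair COL4A1 at 4.08, 147 and 9.24 CPM and COL4A2 at 0.345, 419.6 and 0.224 CPM was high in PC-9GR, whereas COL6A1, of microfibrils, at 793, 55.8 and 512 CPM was high in PC-9 and PC-9ER. Of 16 integrins, 7 were higher in PC-9ER and 5 in PC-9GR. ITGB6, whose product activates latent TGF-beta, was at 143, 5.23 and 106 CPM and ITGA5, the fibronectin receptor subunit, at 430.5, 65.5 and 295 CPM, both low in PC-9GR. ITGB1, the common beta subunit, was higher there at 689, 2609.6 and 818 CPM. ITGA2, a collagen receptor subunit, was low in both lines at 541, 72 and 93.5 CPM.

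EGFR (NCBI gene 1956, chromosome 7, 55019021 to 55211628), the receptor targeted by the inhibitors, was at 1185, 349 and 464 CPM. Both lines were below PC-9 by more than 2-fold, and they were within 2-fold of each other (log2 ratio 0.41). ERBB2 was at 131, 102 and 86.8 CPM. ERBB3 (NCBI gene 2065, chromosome 12, 56076799 to 56103505), the kinase-poor partner that couples to PI3K, was 14.1-fold higher in PC-9ER at 117, 5.85 and 84.2 CPM (counting interval 11.8 to 17.7). ERBB4 was at or near 0 in all 3.

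The ERBB ligands split by line, with 3 of 8 higher in each. NRG1 (NCBI gene 3084, chromosome 8, 31639386 to 32767959), the ligand of ERBB3, was at 0.861, 158 and 0.784 CPM, 175-fold higher in PC-9GR, the library in which its receptor was low. AREG was also higher in PC-9GR at 3.10, 28.5 and 9.13 CPM. The EGFR ligands HBEGF, at 82.3, 2.19 and 24.6 CPM, and TGFA, at 73.8, 9.73 and 20.9 CPM, were higher in PC-9ER than in PC-9GR but below PC-9 in both. BTC, betacellulin, was also higher in PC-9ER at 6.26, 3.66 and 13 CPM. Of 10 ERBB regulators, 8 were within 2-fold. The adaptor GAREM2 was at 0.172, 16.7 and 1.40 CPM and LRIG1, which promotes EGFR turnover, at 1.55, 9.68 and 22.2 CPM, above PC-9 in both lines.

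Genes of ERK output had negative medians against PC-9 in both lines. The medians over 27 members were -0.94 for PC-9GR over PC-9 and -1.22 for PC-9ER over PC-9, and between the lines 12 were higher in PC-9GR, 7 in PC-9ER and 8 were within 2-fold. SPRY4 (NCBI gene 81848, chromosome 5, 142310427 to 142326455), a feedback inhibitor of receptor kinase signalling, was at 85, 11.5 and 1.18 CPM. The ETS factors ETV5 (NCBI gene 2119, chromosome 3, 186046308 to 186110318) at 74.4, 35.7 and 1.85 CPM, ETV4 at 131, 53.8 and 11.3 CPM and ETV1 at 10.0, 4.84 and 0.224 CPM had the same order. EPHA2, a receptor gene induced by ERK, was at 176, 115 and 24.8 CPM and CCND1, cyclin D1, at 358, 262 and 95.8 CPM. DUSP6 (NCBI gene 1848, chromosome 12, 89347232 to 89353271), the ERK phosphatase, was low in both at 91, 11.2 and 7.06 CPM. Other members departed from this order: DUSP1, a stress-responsive phosphatase, at 8.38, 199 and 31.8 CPM, and IL6 at 1.38, 1.18 and 20.9 CPM, which in PC-9ER alone was above PC-9. For 6 of the 27 only PC-9ER was 2-fold from PC-9, and for 3 only PC-9GR. Over all 13023 genes past the limit these classes held 325 and 3340 genes.

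Among 24 bypass receptors and ligands, 7 were higher in each line. MET (NCBI gene 4233, chromosome 7, 116672390 to 116798386), the HGF receptor that can replace EGFR, was at 159, 243 and 151 CPM and did not separate the lines by 2-fold. FGF2 (NCBI gene 2247, chromosome 4, 122826708 to 122898236), a fibroblast growth factor, was at 0.115, 104 and 0.0560 CPM, close to the floor outside PC-9GR. Its receptor FGFR1 was at 12.3, 154 and 31.5 CPM and FGFR4 at 10.1, 69.7 and 8.01 CPM, both higher in PC-9GR. The insulin-like growth factor receptor IGF1R was higher there too, at 67.2, 224 and 37.6 CPM. AXL was above PC-9 in both, at 68.7, 131 and 253 CPM, and its ligand GAS6 was higher in PC-9ER at 40.7, 11.4 and 71.8 CPM. EPHA1, an ephrin receptor of epithelia, was near absent from PC-9GR at 46.8, 0.0563 and 37.5 CPM. FGF2 and the receptors FGFR1 and FGFR4 were thus higher in PC-9GR, and GAS6 in PC-9ER, while AXL differed by less than 2-fold between the lines.

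In the Hippo pathway, which restrains the coactivators YAP1 and TAZ, 7 of 35 components were higher in PC-9ER and 6 in PC-9GR. A further 22 were within 2-fold, against 61.1% of all genes. YAP1 (NCBI gene 10413, chromosome 11, 102110461 to 102233423) was at 199, 69.8 and 102 CPM, below PC-9 in both lines. WWTR1 (NCBI gene 25937, chromosome 3, 149517235 to 149736714), which encodes TAZ, lay on opposite sides of PC-9 at 98.6, 227 and 47 CPM, 4.83-fold higher in PC-9GR (counting interval 4.49 to 5.22). VGLL1, a TEAD cofactor, at 101, 0 and 47.9 CPM, AMOT, a scaffold that holds YAP1 at junctions, at 117, 0.169 and 40.8 CPM and AMOTL1 at 286, 19.7 and 143 CPM were higher in PC-9ER. TEAD1, the DNA-binding partner, at 126, 192 and 55.1 CPM and the atypical cadherin FAT1 at 208, 252 and 61.9 CPM were higher in PC-9GR. Of 26 YAP and TAZ target genes, 10 were higher in PC-9GR and 3 in PC-9ER, with a median of -0.38. CCN2, the classic target CTGF, was at 0.172, 26.9 and 0.112 CPM and FOXF2 at 0.0574, 32.4 and 0 CPM. CCN1, the target CYR61, at 112, 62 and 159 CPM and F3, tissue factor, at 216, 2.08 and 402 CPM went the other way. GADD45A, at 18, 15.9 and 89.1 CPM, was the third target higher in PC-9ER. TFF3, a trefoil factor, had 0 counts in PC-9 and 1 count in PC-9GR, and the table of PC-9ER does not list it.

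NRF2 target genes were mostly higher in PC-9GR, in 20 of 36 members, against 3 in PC-9ER, with a median of -1.40. Over PC-9 the medians were 1.73 in PC-9GR and 0.29 in PC-9ER. AKR1B10 (NCBI gene 57016, chromosome 7, 134527592 to 134541408), a reductase of retinals and lipid aldehydes, was at 433, 5081 and 305 CPM, 16.6-fold higher in PC-9GR. AKR1C1 was at 7.81, 1579 and 129 CPM and AKR1C3 at 26.1, 1564 and 367 CPM, above PC-9 in both. AKR1C2 (NCBI gene 1646, chromosome 10, 4987400 to 5018031), a steroid reductase of the same cluster, was closer between the lines at 64.1, 4773 and 2489 CPM (log2 ratio -0.94). Reads of the AKR1C genes can be shared, so their split is uncertain.

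NQO1, the quinone reductase, was at 677, 2466 and 881 CPM and HMOX1, heme oxygenase, at 30.4, 280.1 and 62.4 CPM. The pentose phosphate enzymes PGD, at 398, 2033 and 508 CPM, and TKT, at 811, 2344 and 691 CPM, were also highest in PC-9GR. GPX2 (NCBI gene 2877, chromosome 14, 64939152 to 64942905), a glutathione peroxidase, lay on opposite sides of PC-9 at 79.3, 278 and 3.92 CPM. The transporter ABCC2 did too, at 66.3, 431 and 15.4 CPM. The members higher in PC-9ER were AKR1B1 at 3564, 1990.3 and 4162 CPM, the ferritin FTH1 at 11229.7, 5838 and 12134 CPM and CYP4F11 at 26, 5.91 and 50.8 CPM. Of 8 NRF2 regulators 2 were higher in each line. NFE2L2, which encodes NRF2, was within 2-fold at 103, 131 and 125 CPM. KEAP1, its inhibitor, was at 144, 88.4 and 178 CPM (log2 ratio 1.01).

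Aldehyde dehydrogenases had 6 of 16 members higher in PC-9GR and 2 in PC-9ER. Next to ALDH1A1, ALDH3A1 was at 91.1, 942 and 89.2 CPM and ALDH3B1 at 32.6, 372 and 43 CPM. ALDH1A3 (NCBI gene 220, chromosome 15, 100877714 to 100916626), which also makes retinoic acid, had the reverse pattern at 532, 18.9 and 491 CPM, 25.8-fold higher in PC-9ER (counting interval 23.3 to 29). The lines thus carried different transcripts of the ALDH1A family. Of 12 UGT and cytochrome P450 genes, 7 were higher in PC-9GR and 4 in PC-9ER. CYP24A1, which inactivates vitamin D, was at 6.60, 827 and 9.30 CPM, and CYP1B1, a target of the aryl hydrocarbon receptor, at 109, 33.9 and 439 CPM. UGT1A6, whose first exon alone is its own, was at 123, 2.08 and 61.3 CPM. Among 27 ABC transporters, 11 were higher in PC-9GR and 4 in PC-9ER. ABCC4, an exporter of nucleotides, was at 29, 121 and 11 CPM and ABCA3, a lipid transporter, at 6.09, 59 and 4.65 CPM. The drug efflux pump ABCG2 was at 40.7, 124 and 53.1 CPM, and the pump ABCB1 had 0 counts in all 3. The named transporters other than ABCB1 were thus highest in PC-9GR.

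CDKN2A (NCBI gene 1029, chromosome 9, 21967753 to 21995301), which encodes the cell cycle inhibitor p16, was at 202, 0 and 210.4 CPM, from 3514, 0 and 3757 counts, and so, as listed, at least 1247-fold higher in PC-9ER. Its neighbour CDKN2B was at 67.5, 0.0563 and 19.8 CPM, with 1175, 1 and 353 counts. MTAP, the salvage enzyme on the other side, was at 52, 3.94 and 33.4 CPM, 8.25-fold higher in PC-9ER (counting interval 6.61 to 11). Further out, TUSC1 was also lowest in PC-9GR, at 9.93, 6.25 and 16.2 CPM. KLHL9 was at 20.5, 60.2 and 19.3 CPM, FOCAD at 38, 62 and 29.6 CPM, CAAP1 at 14.5, 26.5 and 16 CPM and PLAA at 46, 58.9 and 51.7 CPM. Of 14 genes of this stretch past the limit, 4 were higher in PC-9ER (CDKN2A, CDKN2B, MTAP and TUSC1) and 7 in PC-9GR. Counts per gene do not show whether DNA is present.

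**Figure D5:**
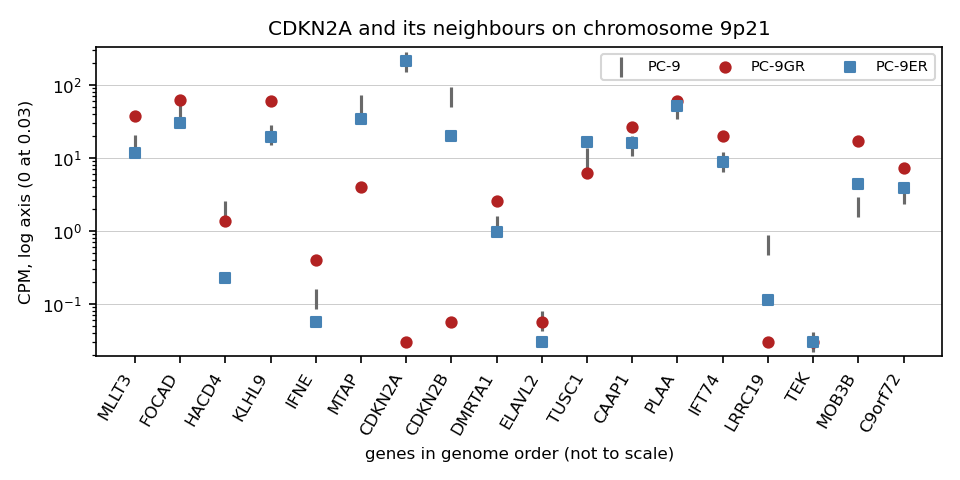
Level in CPM, on a log axis, of CDKN2A and its listed neighbours on chromosome 9p21 in genome order, for PC-9 (bars), PC-9GR (circles) and PC-9ER (squares); 0 counts are drawn at 0.03. The PC-9GR circles drop at MTAP, CDKN2A and CDKN2B and lie near or above the other libraries at most other genes past the limit.

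Other cell cycle regulators differed too. CDKN1A, p21, was at 47.8, 216 and 24.6 CPM and CCND3, cyclin D3, at 50.9, 432 and 51.9 CPM, both highest in PC-9GR. Of 39 proliferation genes 32 were within 2-fold, against 61.1% of all genes, with a median of 0.19, 4 higher in PC-9GR and 3 in PC-9ER. TOP2A, topoisomerase II alpha, was at 231, 719 and 207 CPM, CCNA2, cyclin A2, at 135, 99.5 and 263 CPM and MKI67 at 529, 375 and 356 CPM.

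SMARCA4 (NCBI gene 6597, chromosome 19, 10960825 to 11079426), the ATPase BRG1 of SWI/SNF chromatin remodellers, was at 347, 9.56 and 260.1 CPM, 26.9-fold higher in PC-9ER (counting interval 23.3 to 31.9). Its paralog SMARCA2, BRM, was at 9.93, 47.7 and 17.8 CPM, higher in PC-9GR. The subunits BRD9 at 55.9, 19.7 and 62.7 CPM, SMARCD3 at 0.976, 17.4 and 2.35 CPM and BCL7A at 0.345, 17.2 and 0.672 CPM also differed, and 19 of 24 subunits were within 2-fold, SMARCB1 and ARID1A among them. In the BCL2 family, 12 of 17 were within 2-fold. BMF, which promotes cell death, was at 37.2, 14.5 and 80.6 CPM and BCL2L1, which encodes BCL-XL, at 208, 307 and 75.9 CPM, so that PC-9ER had more of the former and less of the latter than both other libraries. BCL2L11, which encodes BIM, was at 39.9, 48.5 and 41.9 CPM.

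Lineage factors separated the lines without a common direction for the list (5 of 13 higher in PC-9ER, 6 in PC-9GR). Factors of liver, gut and kidney lineages were found in PC-9GR and were near absent from the other 2 libraries. HNF4A was at 0.459, 53.1 and 0.672 CPM and FOXA2, a partner factor of foregut tissues, at 0.345, 65.2 and 0.728 CPM. FOXA1, of airway epithelium, was at 83.8, 11.7 and 45.6 CPM and LAMP3, an alveolar marker, at 18.4, 0.281 and 17.5 CPM, both higher in PC-9ER. The complement and acute phase list had 9 of 20 members higher in PC-9GR and 5 in PC-9ER. The fibrinogen genes FGA, at 0, 35.3 and 0 CPM, and FGB, at 0, 23.7 and 0 CPM, were on the PC-9GR side. So was the terminal complement component C5 at 1.26, 86.7 and 1.12 CPM. LCN2, an iron-binding defence protein, was on the PC-9ER side at 824, 13.2 and 974 CPM. The central complement component C3, at 795, 79.7 and 359 CPM, and factor B, CFB, at 34.6, 4.95 and 119 CPM, went with LCN2.

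Mucins and goblet genes had 6 of 11 members higher in PC-9GR and 4 in PC-9ER. The membrane mucins MUC16 at 355, 0 and 122 CPM and MUC4 at 103, 0.0563 and 96.7 CPM were near absent from PC-9GR. MUC13 at 0, 21.2 and 0 CPM, MUC5AC at 0, 9.96 and 0 CPM and AGR2, which folds mucins, at 32, 158 and 3.02 CPM were higher there. The median of -1.65 turned to 1.61 when members under 10 CPM were left out, so the list has no stable direction. Neuroendocrine and neural genes had 6 of 9 higher in PC-9GR and 1, NCAM1, in PC-9ER at 15.7, 0 and 15.3 CPM. ENO2 was at 2.18, 56.4 and 4.70 CPM and L1CAM, low in both, at 78.7, 8.21 and 3.47 CPM. Their median of -1.66 (-1.88 with counts raised to 3) turned to 0.19 at the 10 CPM limit. HOX genes had 12 of 23 higher in PC-9GR and 4 in PC-9ER: HOXB13 was at 0, 12.7 and 0 CPM, HOXC9 at 1.21, 11.3 and 0.784 CPM and HOXA3 at 34, 7.6 and 33.7 CPM.

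Class I antigen presentation leaned to PC-9ER, with 11 of 18 members higher there and 1 in PC-9GR, and a median of 1.15. The heavy chain HLA-B was at 50.1, 11.4 and 59.6 CPM. ERAP2, which trims peptides, was at 149, 3.77 and 115 CPM, the largest gap of the list. NLRC5, the transactivator of class I genes, was at 23.2, 6.02 and 34.3 CPM and the immunoproteasome subunit PSMB8 at 45.9, 22.5 and 77.6 CPM. B2M, the shared light chain, was within 2-fold at 279.9, 318 and 494 CPM. HLA genes are similar in sequence and can share reads. Interferon-stimulated genes had no common direction, with 8 of 32 higher in PC-9ER and 10 in PC-9GR. GBP1, a guanylate-binding protein, at 22.7, 0.338 and 96.7 CPM and the virus restriction gene IFITM3 at 30.7, 3.60 and 40.0 CPM were higher in PC-9ER. IFITM2 was higher in PC-9GR at 0.172, 41.6 and 0.224 CPM. IFITM2 and IFITM3 are similar in sequence, so their opposite values are uncertain.

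NF-kB cytokines likewise split, 10 of 25 higher in PC-9ER and 8 in PC-9GR. IL1A at 6.32, 0.338 and 29.5 CPM, IL1B at 14, 0.338 and 44 CPM and IL6 (NCBI gene 3569, chromosome 7, 22725884 to 22732002) were above PC-9 in PC-9ER, and TNFAIP3, a brake on NF-kB, was low in PC-9GR at 164, 13.6 and 214 CPM. The chemokines CCL2 at 0.0574, 20.1 and 0 CPM and CXCL1 at 4.71, 35.9 and 4.59 CPM were on the PC-9GR side beside CXCL5. Of 14 checkpoint ligands, 6 were higher in PC-9ER and 2 in PC-9GR. CD274, PD-L1, was at 6.72, 2.36 and 9.63 CPM, CD47, the signal against phagocytosis, at 169, 56 and 182 CPM and the adhesion protein CEACAM6 at 1301, 0.844 and 447 CPM. TNFSF9, the ligand 4-1BBL, was low in PC-9ER alone at 13, 23 and 2.18 CPM.

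TGF-beta, activin and BMP genes were higher in PC-9GR in 17 of 32 members and in PC-9ER in 6, with a median of -1.13. The receptor TGFBR2 was at 32.3, 191 and 30.9 CPM and the BMP receptor BMPR1B at 0.402, 19.4 and 0.840 CPM. The BMP targets ID2, at 0.287, 44.7 and 0.448 CPM, and SMAD6, at 21.2, 107 and 6.78 CPM, were high in PC-9GR as well. INHBA, the activin subunit (NCBI gene 3624, chromosome 7, 41667168 to 41705834), was the reverse at 53.6, 0.225 and 129.6 CPM, with its antagonist FST at 0.345, 11.8 and 0.168 CPM, and the BMP antagonist NOG was at 64.3, 0.394 and 18 CPM. Receptors and BMP targets were thus on the PC-9GR side and activin on the PC-9ER side. Notch genes split 10 to PC-9GR and 9 to PC-9ER of 21. The receptors NOTCH2, at 412, 80.0 and 429 CPM, and NOTCH3, at 221, 46 and 136 CPM, were higher in PC-9ER. The ligands JAG1, at 45.1, 71.3 and 22 CPM, and DLL3, at 0.689, 12.3 and 1.90 CPM, were higher in PC-9GR. The target HES1 went with the receptors at 39, 6.92 and 17.7 CPM.

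Of 33 genes of sterol and fatty acid synthesis, 21 were within 2-fold between the lines, against 61.1% of all genes. The median was -1.01 for PC-9ER over PC-9, -0.39 for PC-9GR over PC-9 and -0.58 between the lines, and 11 members were higher in PC-9GR against 1, NSDHL, in PC-9ER. SCD (NCBI gene 6319, chromosome 10, 100347124 to 100364834), which desaturates stearate, was at 3328, 5145 and 636 CPM, 8.09-fold higher in PC-9GR (counting interval 7.93 to 8.25). FASN, fatty acid synthase, was at 1466, 897 and 285 CPM and SREBF1, the regulator SREBP-1, at 252, 308 and 80.1 CPM. The desaturases FADS1 at 283, 1197 and 137 CPM and FADS2 at 136, 1668 and 168 CPM were higher in PC-9GR than in either other library. For 7 members only PC-9ER was 2-fold from PC-9, against 3 for PC-9GR. The same classes held 325 and 3340 of all 13023 genes. HMGCS1, of cholesterol synthesis, was closer: at 922, 229 and 347 CPM it was below PC-9 in both lines, which were within 2-fold of each other. STARD4 (0, 29 and 0 CPM) is used by most cells, so its 0 in PC-9 and PC-9ER is given as listed.

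Of 31 glycolysis and hypoxia genes 19 were within 2-fold, against 61.1% of all genes, 7 were higher in PC-9GR and 5 in PC-9ER. CA12 (NCBI gene 771, chromosome 15, 63321378 to 63382161), a carbonic anhydrase, was at 2.81, 1684 and 12.4 CPM. HK2, hexokinase 2, was at 98.8, 1.91 and 42.4 CPM and PFKFB3, an activator of glycolysis, at 50.9, 454 and 53.8 CPM, so the lines differed in opposite directions for these enzymes. In the integrated stress response, 9 of 23 were higher in PC-9GR and 3 in PC-9ER, the latter being ATF3 at 2.93, 3.94 and 8.85 CPM, ATF5 at 76.3, 28.8 and 86.9 CPM and STC2 at 584, 68 and 315 CPM. NUPR1 was at 0.345, 40.0 and 1.23 CPM and the amino acid transporter SLC7A5 at 291, 1625 and 563 CPM. Of 13 S100 proteins, 5 were higher in PC-9ER, among them S100A9 at 345, 0 and 81.8 CPM and S100A14 at 150.5, 0 and 34.2 CPM, and 4 in PC-9GR, led by S100A4. Tubulins differed in 5 of 12. TUBA1A, at 4.88, 256 and 12.9 CPM, and TUBB3, at 21.5, 149 and 61.4 CPM, were higher in PC-9GR. TUBB4A was too, at 0, 13.7 and 0.0560 CPM. TUBB2B, at 55.8, 12.2 and 56.3 CPM, and TUBA1C, at 955, 664 and 1360.2 CPM, were higher in PC-9ER. MT2A, a metallothionein, was at 224, 316 and 785 CPM, 1 of 3 past the limit.

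Genes for which only PC-9ER was 2-fold from PC-9 numbered 325, 118 of them higher and 207 lower than in PC-9GR. The lower ones with the largest gaps included TNFSF9, SCD, CHD9 and ARHGAP23. CHD9, a chromatin remodeller, was at 28.7, 56.7 and 6.44 CPM, and ARHGAP23, a GTPase-activating protein, at 37.3, 35.9 and 5.15 CPM. The higher ones were IL6, GADD45A, RASD2, NFIX, GSTM4 and COL4A5. RASD2, a RAS-like GTPase, was at 7.46, 4.56 and 29.3 CPM and NFIX, a transcription factor, at 17.2, 9.40 and 45.8 CPM. GSTM4, a glutathione transferase, was at 15.2, 10.0 and 45.7 CPM and COL4A5, a basement membrane collagen, at 56.9, 51.1 and 220.3 CPM. Their ratios between the lines were 4.30-fold (COL4A5) to 16.1-fold (IL6), far smaller than those of genes near absent from one of the lines. The counting interval of the IL6 ratio, from 24, 21 and 373 counts, was 11.4 to 28.9.

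For 266 genes the lines lay on opposite sides of PC-9. With PC-9GR high, the largest gaps included those of MYH10, HPGD, CP, TENM3 and DCDC2. MYH10, non-muscle myosin IIB, was at 0.172, 126 and 0 CPM and HPGD, which inactivates prostaglandins, at 1.38, 188 and 0.112 CPM. CP, ceruloplasmin, was at 4.25, 79 and 0.112 CPM. TENM3, a teneurin, was at 0.517, 29.4 and 0 CPM and DCDC2, a doublecortin-domain protein, at 2.12, 42.1 and 0.0560 CPM. All of these were low in PC-9 and at or near 0 in PC-9ER. MYH10 had 3, 2246 and 0 counts and TENM3 9, 523 and 0, and with the 1 CPM limit set against PC-9 as well neither was on opposite sides. With PC-9ER high, they were KRT5, INHBA, CALB1, a calcium buffer, at 4.48, 0 and 36.2 CPM, U2AF1, a splicing factor, at 19.98, 0.113 and 68.8 CPM, HYI at 12.8, 0 and 30.6 CPM and GBP1. U2AF1 has a copy, U2AF1L5, at 30.2, 76.2 and 4.42 CPM, so the reads of the pair may have been divided differently. Among genes where both lines were 2-fold from PC-9 in one direction, CPLX2, BASP1, a growth cone protein, at 0.402, 553 and 0.952 CPM, GPRIN2 at 0, 101 and 0.224 CPM and RSPO3, a WNT enhancer, at 0.230, 163 and 0.728 CPM were above PC-9, by few counts in PC-9ER, and with that limit all 4 had PC-9GR alone apart. MUC16, ADGRF5, an adhesion receptor, at 414, 0 and 111 CPM and PROM2, a membrane protrusion protein, at 439, 0.113 and 198 CPM were below PC-9 in both.

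Cancer-testis antigens, germline genes that tumours can switch on, had the largest list median, 9.46 (8.98 with counts raised to 3), with 11 of 13 members higher in PC-9ER and 2 in PC-9GR. MAGEA3 (NCBI gene 4102, chromosome X, 152698752 to 152702347) was at 317, 0 and 346 CPM, at least 2052-fold higher in PC-9ER, MAGEA4 at 274, 0 and 273 CPM and MAGEC1 at 97.7, 0 and 76.8 CPM. PRAME, the antigen on the PC-9GR side, was at 0, 159 and 0 CPM and XAGE1B at 0, 5.23 and 0 CPM. Many members are near copies that can share reads, so 11 is not a count of independent genes. In HCC827, HCC827GR and HCC827ER, MAGEA3 was at 0.328, 0 and 0.352 CPM.

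Most of 1303 windows of 10 genes in genome order had a median within 2-fold. Of these windows, 79 had a median log2 ratio of at least 1, 93 of at most -1 and 1131 lay between. The highest, on chromosome X with MAGEA3, MAGEA6, MAGEA2, MAGEA12 and the CSAG genes, had a median of 9.46. The next lay on chromosome 6 from SUPT3H to ADGRF1, with a median of 4.17 and 9 of 10 genes higher in PC-9ER. It holds RUNX2, the bone-forming factor, at 22.2, 2.36 and 22.8 CPM and the adhesion receptor ADGRF1 at 351, 0 and 209.7 CPM. Between them lie the phosphodiesterase genes ENPP4, at 16.9, 1.01 and 16.4 CPM, and ENPP5, at 5.63, 0 and 11.2 CPM, and the phospholipase PLA2G7 at 3.67, 0 and 8.46 CPM. PC-9GR was the lowest of the 3 libraries at each of these genes. The third was a run of zinc finger genes on chromosome 19, with a median of 3.99 and 9 of 10 higher in PC-9ER, among them ZNF320 at 25.7, 0 and 21.1 CPM, ZNF600 at 10.8, 0.0563 and 13 CPM and ZNF347 at 12.2, 0.113 and 10.9 CPM, whereas ZNF160 was at 18.3, 17.6 and 15.6 CPM.

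The lowest window was the protocadherin cluster on chromosome 5 at -4.00, with PCDHA12 at 0, 8.89 and 0 CPM and PCDHB5 at 0.0574, 6.41 and 0 CPM. A stretch of duplicated genes on chromosome 21 followed at -3.94, with SIK1B and with GATD3B at 0, 46.8 and 0 CPM. The third, on chromosome X at -3.58, holds MAGED4 at 0, 14.6 and 0 CPM and XAGE1A at 0, 47.5 and 0 CPM. Copies in these windows can share reads, so the values on chromosome 21 and of the MAGED4 and XAGE1 pairs are uncertain. Taken as families, which were chosen after the windows were seen, 76 of 208 zinc finger genes on chromosome 19 were higher in PC-9ER and 29 in PC-9GR, against 26 and 46 of 231 on other chromosomes. On chromosome 19, 22 of the 208 had 3 counts or fewer in PC-9GR and 1 had so few in PC-9ER. On other chromosomes 3 and 9 of the 231 did. Of all 13023 genes, 1043 had so few in at least 1 of the 2 lines. Of 18 clustered protocadherins 17 were higher in PC-9GR and 1 in PC-9ER.

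The same comparison across tables can be made in the other line of origin, since HCC827GR is in the first table and HCC827ER in the second, and no library is shared. Of 12537 genes past the limit, 2308 (18.4%) were at least 2-fold higher in HCC827ER and 2266 (18.1%) in HCC827GR. That split turned to 1366 and 3634 with scaling by total counts. Genes higher in ER in both pairs numbered 475, which is 19.9% of the PC-9 list and 20.6% of the HCC827 list, and 309 (12.9%) of the PC-9 list went the opposite way. Genes higher in GR in both numbered 432 (16.2% and 19.1%), with 546 (20.5%) opposite. Across 11971 genes the log2 ratios of ER to GR correlated at a Pearson r of 0.035 and a Spearman rho of 0.020. Across genes, the gap between PC-9ER and PC-9GR thus had almost no relation in rank to that between HCC827ER and HCC827GR. ESRP1, at 1.29 and 17.4 CPM in HCC827GR and HCC827ER, was higher in ER in both pairs, whereas AKR1B10, at 19.1 and 237 CPM, and CXCL5, at 42.4 and 854 CPM, were opposite.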

How the data were processed

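RNA from 6 cell lines was measured with 1 library per line. The authors deposited expected counts per gene in 2 tables set side by side in 1 file, the first with PC-9, PC-9GR, HCC827 and HCC827GR and the second with PC-9ER and HCC827ER. The submitters' processing notes name HISAT2 2.0.4, Cuffdiff and the genome build GRCh38.p13, while the program behind the estimated values was not given in the sources used here. Between 13.2% and 14.3% of values were not whole, and all were rounded to whole counts. The 2 tables hold 16854 and 16306 genes, and the 16000 with a gene identifier in both were used. No column of per-sample values was left out (0).

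Counts were scaled by TMM over the 6 libraries on 12826 genes (edgeR 4.0.16, R 4.3.3) and given as CPM, and log2 ratios carry a prior count of 2. With 1 library per line no model was fitted. Genes 2-fold or more apart with at least 1 CPM in either line were counted, and each was classed by whether PC-9GR, PC-9ER or both were 2-fold from PC-9. Counting intervals on ratios are exact binomial (Clopper-Pearson) at 95%, and a fold against 0 counts uses a floor of 3 counts per library. The printed gene positions come from GENCODE annotation on GRCh38. The genome order of the windows and of the genes on chromosome 9p21 comes from RefSeq, and so do the promoter windows (GRCh38.p14). The 2-fold calls, their directions and the classes were checked on simulated counts. These used the scaling of the real libraries, so the scaling itself was not checked. Python 3.11.15, pandas 2.3.3, numpy 2.4.6, scipy 1.17.1 and matplotlib 3.10.9 were used, and DESeq2 1.42.0 gave size factors as an alternative scaling.

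Genes were named by rule: YAP1, WWTR1, EGFR, MET and TFF3, the 10 largest ratios each way at 50 CPM or more, the 4 or 6 largest gaps of each class and the 10 genes of the 3 highest and 3 lowest windows. In each gene list the rule took the 4 largest gaps and up to 4 defining members. The comparison, the genes and the gene lists were chosen with earlier results of these data known, and members named beyond the rule were chosen after their values were seen. Some genes that the rule selects are not reported here, though list and class counts include them.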

Additional observations from a re-analysis of the deposited data

Results flagged for a closer look

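Several results had opposite directions in the pair of PC-9 origin and the pair of HCC827 origin. The difference between the pairs was not tested, since each line has 1 library. The values below are log2 ratios of ER to GR, first for the PC-9 pair and then for the HCC827 pair. A ratio against 0 counts, such as those of CXCL5, FGA and CCL2, depends on the prior count and is no bound.

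The median of the mucins and trefoil factors was -1.65 and 2.12. That of the leukocyte list was 1.43 and -1.68, and it has 5 members past the limit, LCP1 among them.

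Reductases and peroxidases higher in PC-9GR were higher in HCC827ER: AKR1B10 was at -4.06 and 3.62, AKR1C1 at -3.61 and 5.02 and GPX2 at -6.11 and 4.23. So were 2 secreted proteins, CP at -8.40 and 5.70 and FGA at -8.19 and 7.08. The chemokines CCL2, at -7.38 and 5.53, and CXCL5, at -11.19 and 4.33, had the same signs. CA12 was at -7.07 and 5.32. AMOT had the reverse order, at 7.14 and -3.03.

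Genes listed in the first table alone enter no comparison, and 48 of them had at least 100 counts in PC-9GR. GABRA5, a GABA receptor subunit, had 1953 counts in PC-9GR and 0 in PC-9. NTRK3, the neurotrophin receptor TRKC, had 1090 and 0, GREM1, a BMP antagonist, 1048 and 0, and NR0B1, the nuclear receptor DAX1, 648 and 0. Of the mesenchymal genes, THY1 had 171 and 1 and TWIST1 had 38 and 6. The table of PC-9ER does not list these genes, so no level is given for it.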

How the results depend on the processing

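The counts were recomputed with other scalings, prior counts, limits and fold sizes. All 249 named genes that were 2-fold apart kept their direction with DESeq2 size factors, TMM over the PC-9 origin alone, a prior count of 0.5 and total counts, and 248 stayed 2-fold apart with total counts. The prior count of 0.5 moved ratios by up to 2 on the log2 scale, so a ratio against 0 counts is no bound. With total counts in place of TMM the HCC827 pair gave 1366 genes higher in HCC827ER and 3634 higher in HCC827GR, and the cause was not tested. In the PC-9 pair the median of all genes was -0.02 with TMM and 0.03 with total counts, and the share of calls higher in PC-9ER went from 47.3% to 49.9%.

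With a limit of 10 CPM, 203 genes had only PC-9ER apart, 137 lay on opposite sides, 301 lay on the same side, and 265 were higher in ER in both pairs. At 4-fold, 1172 genes were higher in PC-9ER and 1287 in PC-9GR, with 1983 where only PC-9GR was apart, 86 where only PC-9ER was, 41 opposite, 74 on the same side and 275 with neither apart. The HCC827 pair then gave 634 and 457 genes, and both pairs shared 145 higher in ER and 46 higher in GR. Silence set at 0 counts left 109 genes silent in PC-9GR against 131 for PC-9ER, and a level of 50 CPM left 56 and 49. The 10 CPM limit tests fewer genes by construction, while 4-fold and the stricter silence call fewer among the same genes. With the 1 CPM limit also set against PC-9, chosen after seeing the data, 174 genes lay on opposite sides.

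The median of mucins turned to 1.61 and that of neuroendocrine genes to 0.19 with the limit of 10 CPM, and the cause was not tested. No paired analysis was possible because each line has 1 library and no test was run. No library could be left out for the same reason. The table, the line and any difference in harvest or sequencing cannot be told apart.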
